A study of Mus musculus with 11 samples.

Results

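Regulatory T cells (Treg), CD4 T cells that carry the transcription factor Foxp3, were compared with naive CD4 T cells without Foxp3 (TN) on Affymetrix expression arrays. The comparison used 8 of the 11 arrays of the series, 3 of TN and 5 of Treg, taken by the cell type that the labels give. All cells came from spleen and lymph node of mice 6 to 8 weeks old, were selected with a Dynal CD4 kit and were double sorted on GFP. The labels name no genotype, strain or reporter allele for the TN and Treg mice. The remaining 3 arrays (GFPKO) held GFP+ CD4+ cells of Foxp3 GFPKO/WT mice and entered no comparison. They contributed to the estimate of the spread and to the choice of the brightest probe set of each gene. By its title the series belongs to a study of whether Foxp3 makes use of enhancers that exist before Treg arise. TN cells differed from Treg both in Foxp3 and in being naive, and for Treg no activation state was labelled, so these cannot be told apart. Whether replicate arrays held RNA of different mice is not stated in the labels. The p-values therefore refer to the variation between arrays of a group, pooled over all 11 arrays, part or all of which may be technical.

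Foxp3 is a forkhead factor that keeps Treg suppressive, and its loss causes fatal autoimmunity. Treg restrain other T cells through the inhibitory receptor CTLA-4, through uptake of interleukin 2 by a high-affinity receptor that contains CD25 (encoded by Il2ra), and through secreted or surface-bound mediators such as interleukin 10, interleukin 35 and the ectoenzymes CD39 and CD73. Many Treg recognise self antigens and carry traces of recent T cell receptor signalling, whereas naive T cells circulate through lymph nodes and depend on interleukin 7 and weak receptor signals for survival.

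Of 18193 genes tested, 1190 (6.54%) were called higher in Treg and 623 (3.42%) lower, 9.97% in all, with limma and a Benjamini-Hochberg adjusted p under 0.05. Counts of called members in the gene lists below are to be read beside these shares. All values are log2 array values, differences are Treg minus TN with their SE, and adjusted p-values are those of this fit over all genes. The median difference was 0.03 over all genes, 0.90 over those called higher and -0.79 over those called lower. A change of at least 2-fold was reached by 496 genes called higher and 211 called lower, and a change of at least 8-fold by 35 and 16. Array values of the groups did not overlap for 1160 of the genes called higher and 613 of those called lower, against 19.5% of all genes. The split depended on scaling: when each array was centred on its own median, which shifted the median difference by -0.14, 904 genes were called higher and 1174 lower, and 43.5% rather than 65.6% of the called genes were higher. No gene was called in opposite directions under the 2 scalings. With the GFPKO arrays left out of the fit, 1541 genes were called higher and 1010 lower.

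**Figure D1:**
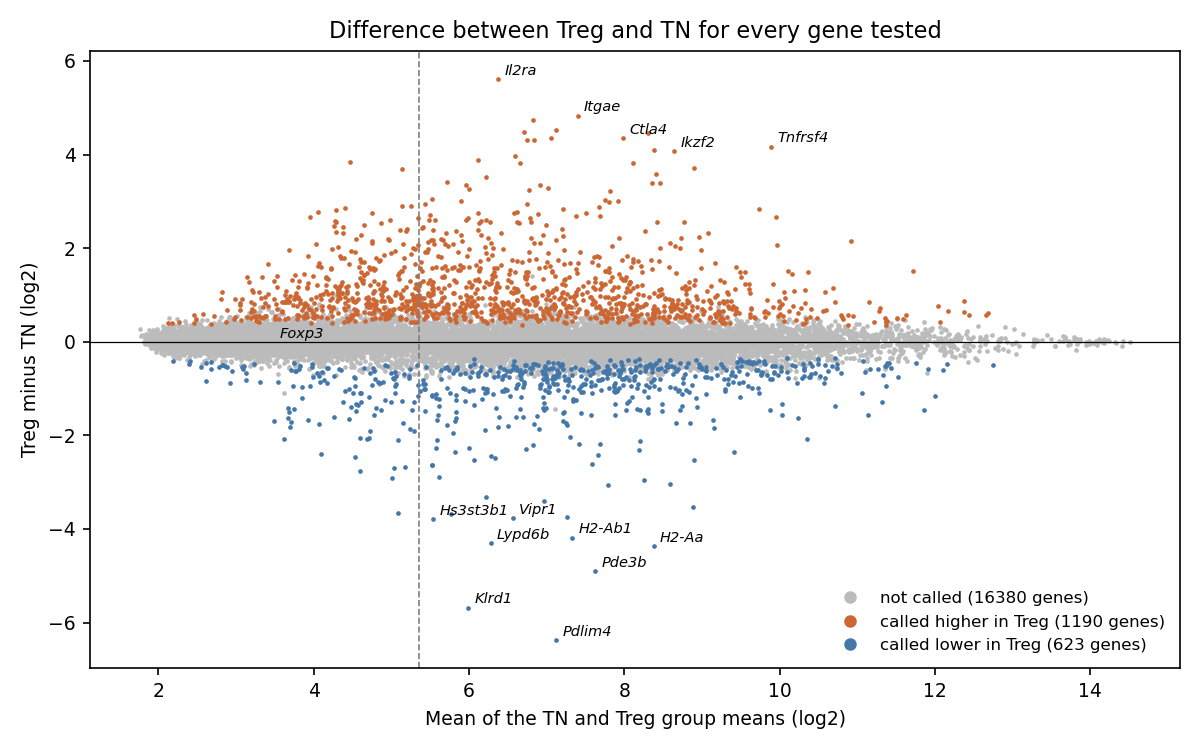
Difference between Treg and TN (log2, vertical axis) against the mean of the group means (log2, horizontal axis) for each of the 18193 genes. Orange points are the 1190 genes called higher in Treg, blue points the 623 called lower and grey points the rest. The dashed line is the background level of 5.36. Il2ra lies highest at 5.62 and Pdlim4 lowest at -6.37.

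Arrays of one group correlated at 0.990 to 0.997 across genes, and TN with Treg arrays at 0.976 to 0.983. The background level was set at 5.36, the 90th percentile of the values of 54 genes typical of other tissues, whose values ranged from 1.88 to 10.39. A group mean at or below that level is called at background here. A fold change against such a group is given as a lower bound, from the background level or the group's own mean, whichever is higher. By this measure 8857 genes were above background in at least 1 group. The pan T cell gene Cd3e had values from 10.60 to 10.85 over the 8 arrays, with a difference of -0.03 ± 0.12. Cd4 read 7.74, 8.17 and 8.18 in TN and 7.61, 7.74, 7.34, 7.84 and 7.90 in Treg, with overlapping groups (difference -0.34 ± 0.17, adjusted p = 0.271).

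Foxp3, measured by 1 probe set, was at background on every array. Its values were 3.99, 3.33 and 3.12 in TN and 3.34, 3.64, 3.62, 3.29 and 3.48 in Treg. The groups overlapped, and the difference was -0.01 ± 0.18 (95% interval -0.40 to 0.37, adjusted p = 0.985). This probe set therefore did not separate the cells labelled Foxp3-positive from those labelled Foxp3-negative, and where it lies on the transcript is not given in the sources used here. The label was checked instead by 4 genes known for high expression in Treg.

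Il2ra, which encodes CD25, the chain that gives the interleukin 2 receptor its high affinity, read 3.70, 3.83 and 3.16 in TN and 9.28, 9.21, 9.25, 9.19 and 8.97 in Treg. All TN arrays lay at background and all Treg arrays far above it, a rise of 5.62 ± 0.15 or at least 14.2-fold (adjusted p = 9.28e-12). A second Il2ra probe set gave a smaller difference, 3.50.
Ctla4, the inhibitory receptor that competes with CD28 for its ligands, read 6.13, 5.89 and 5.40 in TN and 10.40, 10.02, 10.23, 10.10 and 10.05 in Treg. Every Treg array was above every TN array, and the rise of 4.35 ± 0.17 was 20.4-fold (adjusted p = 1.73e-10).
Ikzf2, which encodes the Ikaros family factor Helios, read 6.51, 6.64 and 6.66 in TN and 11, 10.84, 10.72, 10.48 and 10.35 in Treg. The groups were again far apart, with a rise of 4.07 ± 0.22 or 16.9-fold (adjusted p = 5.97e-09).
Tnfrsf4, the co-stimulatory receptor OX40, read 7.76, 7.99 and 7.66 in TN and 11.82, 12.02, 12.08, 11.84 and 12.12 in Treg. It was well above background in TN too, and rose by 4.17 ± 0.14 or 18-fold (adjusted p = 5.97e-11). All 4 markers thus went with the labels on every array.

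**Figure D2:**
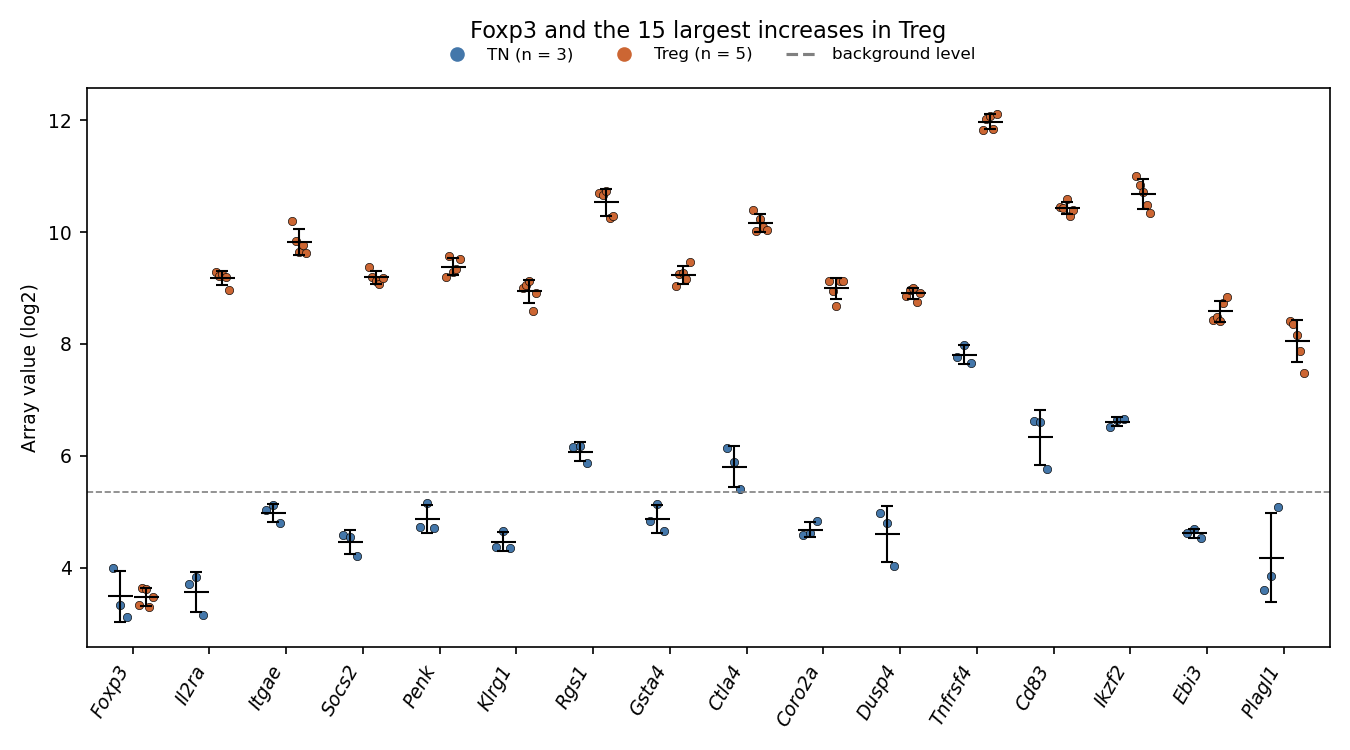
Array values (log2, vertical axis) of Foxp3 and of the 15 genes with the largest increase in Treg, each point an array of TN (blue, n = 3) or Treg (orange, n = 5), with group mean and SD. Foxp3 lies below the background level of 5.36 (dashed line) in both groups. The 15 genes were taken from called genes above background whose groups do not overlap. All their Treg arrays therefore lie above all TN arrays by that choice.

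The promoters of 3 of the 4 marker genes are shown because these genes mark the Treg and rose together; Ikzf2 had no entry in the table. Each window runs from 250 bases before to 50 bases after the gene's start in RefSeq on GRCm38.p6. Capitals mark the 50 bases from the start onward. They are chr2:11642542-11642841 for Il2ra, chr1:60908775-60909074 for Ctla4 and chr4:156013445-156013744 for Tnfrsf4, each on the plus strand.
Il2ra: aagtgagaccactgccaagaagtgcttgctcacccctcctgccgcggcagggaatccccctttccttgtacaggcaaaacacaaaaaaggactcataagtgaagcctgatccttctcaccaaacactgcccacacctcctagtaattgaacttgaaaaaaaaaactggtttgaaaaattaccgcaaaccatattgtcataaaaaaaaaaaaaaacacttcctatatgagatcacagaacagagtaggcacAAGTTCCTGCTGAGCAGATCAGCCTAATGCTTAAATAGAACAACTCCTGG
Ctla4: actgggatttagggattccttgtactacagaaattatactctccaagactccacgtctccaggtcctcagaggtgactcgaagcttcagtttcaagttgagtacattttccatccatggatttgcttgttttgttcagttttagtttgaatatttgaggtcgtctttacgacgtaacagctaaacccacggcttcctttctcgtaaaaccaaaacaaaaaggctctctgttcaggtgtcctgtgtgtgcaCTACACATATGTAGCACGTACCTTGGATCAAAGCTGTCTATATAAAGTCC
Tnfrsf4: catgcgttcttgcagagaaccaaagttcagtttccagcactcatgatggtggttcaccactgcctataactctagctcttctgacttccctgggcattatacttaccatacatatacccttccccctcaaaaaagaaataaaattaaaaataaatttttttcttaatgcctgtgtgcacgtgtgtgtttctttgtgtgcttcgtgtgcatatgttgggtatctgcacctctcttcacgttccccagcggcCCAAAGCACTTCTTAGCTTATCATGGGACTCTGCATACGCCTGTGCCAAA
None of these 3 windows held TGTTTAC (forkhead), TGTGGTT (Runx), TGANTCA (AP-1) or ACTTCCGG (Ets) on either strand, which says only that these letters are absent from the windows.

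A wider list of 22 measured Treg markers, which was put together with earlier results of these data known and so gives no independent evidence of direction, had 21 members called higher. The exception was Foxp3. The median difference of the list was 2.95, against 0.03 over all genes. Itgae, the alpha E integrin CD103 that binds epithelial E-cadherin, rose by 4.83 ± 0.17 (at least 22-fold) from 5.03, 5.11 and 4.80 in TN to 10.21, 9.84, 9.65, 9.76 and 9.63 in Treg. Neither group approached the other. Nrp1, the semaphorin and growth factor co-receptor neuropilin 1, rose by 3.82 ± 0.31 (14.1-fold), from 6.46, 6.42 and 5.73 to 10.60, 10.05, 10.16, 9.85 and 9.45. Gpr83, a G protein-coupled receptor, rose by 3.58 ± 0.18 (11.9-fold) and Izumo1r, folate receptor 4, by 2.07 ± 0.17 (4.19-fold). Capg, an actin-capping protein, rose by 2.67 ± 0.17 (6.36-fold) and Swap70, a guanine exchange factor of the actin cytoskeleton, by 2.29 ± 0.14 (4.89-fold). Itgb8, the integrin chain that pairs with alpha V to activate latent TGF-beta, had values of 2.61, 2.59 and 2.64 in TN and 5.76, 5.40, 5.37, 5.0 and 4.87 in Treg. It was called higher with a difference of 2.66 ± 0.19, but both group means were at background and no fold is given. The zinc finger factor Plagl1 rose by 3.88 ± 0.33 on its brightest probe set, while its other 2 probe sets gave differences of 0.54 and 0.29 with both groups at background.

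Interleukin 2 signals through JAK kinases to STAT5, which induces its own feedback inhibitors of the CISH and SOCS family. Of 13 measured genes of the interleukin 2 receptor and STAT5 pathway, 8 were called higher and 1 lower, with a median difference of 0.91. Il2rb, the signalling beta chain, read 6.93, 7.39 and 6.82 in TN and 10.63, 10.84, 10.62, 10.78 and 10.91 in Treg. No array of one group came near the other, and the rise was 3.71 ± 0.18 or 13.1-fold. The feedback gene Cish rose by 3.39 ± 0.16 (10.5-fold), from 6.51, 6.79 and 6.69 to 9.96, 9.92, 9.87, 10.23 and 10.31. Socs2, of the same family, rose by 4.74 ± 0.22 (at least 14.3-fold), from 4.59, 4.55 and 4.20 to 9.37, 9.19, 9.13, 9.06 and 9.19. Il2 itself was called lower, at 4.33, 4.46 and 4.60 in TN and 2.87, 2.72, 3.32, 3.23 and 3.03 in Treg, a difference of -1.43 ± 0.15 with both groups at background. The receptor chains and feedback genes were thus clearly measured in Treg, while the ligand was not above background in either population.

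Members of the TNF receptor superfamily act as co-stimulators or death receptors. Of 18 measured, 8 were called higher and none lower by limma (10 had an unadjusted p under 0.05), with a median difference of 0.35. Besides Tnfrsf4, the largest rises were in Tnfrsf9 (4-1BB), by 2.88 ± 0.17 or 7.35-fold, in Tnfrsf1b (TNF receptor 2), by 2.56 ± 0.18 or 5.90-fold, and in Tnfrsf18 (GITR), by 2.15 ± 0.14 or 4.43-fold. Tnfrsf18 read 9.96, 9.84 and 9.74 in TN and 11.83, 12.02, 12.09, 11.85 and 12.18 in Treg. It was thus already bright in TN, and its arrays still did not overlap. Another Tnfrsf1b probe set gave a difference of 0.49 only. Among 13 TNF family ligands, 4 were called higher and 1 lower (median 0.33): Lta, lymphotoxin alpha, rose by 1.84 ± 0.19 (3.58-fold), Tnfsf11, RANK ligand, by 1.61 ± 0.26 (3.05-fold) and Tnfsf10, TRAIL, by 0.72 ± 0.14 (1.65-fold). Tnfsf9 was called higher with both groups near background (difference 0.68 ± 0.17). Fasl, the death ligand of Fas, fell by 1.41 ± 0.17 (2.66-fold), from 7.35, 6.96 and 6.85 in TN to 5.98, 5.35, 5.77, 5.68 and 5.43 in Treg.

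The CD28 family and other inhibitory receptors tune the threshold for activation. Of 20 measured, 10 were called higher and 1 lower (median 0.49). Cd83, an activation-induced surface protein, read 6.62, 6.60 and 5.77 in TN and 10.44, 10.43, 10.59, 10.28 and 10.40 in Treg. The Treg arrays were close together and all above TN, with a rise of 4.10 ± 0.19 or 17.1-fold. Pdcd1lg2, the PD-1 ligand PD-L2, rose by 3.24 ± 0.14 (at least 8.22-fold), from 5.32, 5.12 and 5.03 to 8.35, 8.30, 8.25, 8.51 and 8.56. Cd86, a ligand of both CD28 and CTLA-4, rose by 1.75 ± 0.16 (3.37-fold). Icos, an inducible co-stimulator, rose by 1.23 ± 0.14 (2.34-fold). Cd28 itself fell by 0.63 ± 0.17 (1.55-fold, adjusted p = 0.0237), and this call was lost in 7 of the 22 alternative settings.

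Among 23 receptors and related genes of other cytokines, 9 were called higher and 3 lower (median 0.15). Ebi3, a subunit that interleukins 27 and 35 share, rose by 3.97 ± 0.18 (at least 9.36-fold), from 4.62, 4.69 and 4.53 in TN to 8.43, 8.49, 8.42, 8.73 and 8.84 in Treg. All TN arrays were at background. The decoy receptor Il1r2 rose by 3.34 ± 0.21 (at least 4.83-fold), from 4.63, 4.47 and 3.76 to 7.32, 7.70, 7.55, 7.53 and 8.03. Il12rb1, shared by the receptors of interleukins 12 and 23, rose by 2.22 ± 0.18 (at least 4.0-fold), and Csf1, the macrophage growth factor, by 2.58 ± 0.19 (at least 4.26-fold), with 1.0 on another of its probe sets. Il7r, the interleukin 7 receptor that naive cells need, fell by 2.08 ± 0.24 (4.23-fold), from 11.42, 11.50 and 11.27 to 9.63, 9.89, 9.41, 8.86 and 8.78. Treg arrays varied more than TN arrays for this gene, without overlap. Il6ra fell by 0.60 ± 0.18 (1.52-fold, adjusted p = 0.0417), a call lost in 10 alternatives, among them those without any 1 TN array. Csf2rb was called lower with both groups at background, and in 4 alternatives 5 members of the list were called lower.

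Chemokine receptors guide cells to follicles, skin, gut or lymph node. Of 21 measured, 8 were called higher and 3 lower (median 0.14). Ccr6, which responds to CCL20 in mucosa, read 5.75, 5.91 and 5.73 in TN and 8.70, 8.61, 8.78, 8.51 and 8.50 in Treg. The gap between the groups was large against the spread, and the rise was 2.83 ± 0.13 or 7.10-fold. Gpr15, a receptor for homing to the large intestine, rose by 2.61 ± 0.20 (at least 2.70-fold), Ccrl2 by 1.82 ± 0.15 (at least 2.24-fold) and Cxcr5, the follicle homing receptor, by 1.52 ± 0.18 (2.86-fold). Ccr9, a receptor for small intestine homing, was called higher by 1.0 ± 0.30 with an adjusted p of 0.0492, and lost the call in 10 alternatives. The lymph node homing receptor Ccr7 fell by 0.95 ± 0.12 (1.93-fold), from 11.79, 11.89 and 11.84 to 10.93, 10.92, 10.86, 10.81 and 10.95. Gpr183, an oxysterol receptor that positions cells in lymphoid tissue, fell by 1.01 ± 0.13 (2.02-fold). Cxcr6 fell by 2.11 ± 0.31 (at least 2.44-fold), from 7.48, 6.48 and 5.97 in TN, where the arrays were spread widely, to 4.74, 5.03, 4.89, 3.84 and 4.18 in Treg.

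Integrins and their ligands hold cells in tissue. Of 24 measured, 5 were called higher and 4 lower (median 0.12). Apart from Itgae and Itgb8, Icam1, a ligand of LFA-1, rose by 1.07 ± 0.20 (2.10-fold) and Cd44, the hyaluronan receptor that rises on activated T cells, by 0.88 ± 0.15 (1.84-fold). Itgb3 fell by 1.49 ± 0.15 (2.81-fold), from 9.29, 9.31 and 9.10 to 7.49, 7.67, 7.95, 7.77 and 7.83. Icam2 fell by 0.64 ± 0.14 (1.56-fold). Itgb5 fell by 0.53 ± 0.11 on its brightest probe set, but its direction turned when other probe sets were used. Those other probe sets were at background in both groups. The fourth member called lower, Itgax, had both groups at background and is described with the myeloid markers.

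Molecules through which Treg are known to suppress or to repair tissue formed one of the most often called lists. Of 17 measured, 12 were called higher and 1 lower, with a median difference of 1.14. Penk, the precursor of the enkephalin peptides, read 4.73, 5.16 and 4.71 in TN and 9.21, 9.57, 9.29, 9.34 and 9.52 in Treg. It was at background on all TN arrays, and rose by 4.52 ± 0.17 or at least 16.3-fold. The ectoenzymes that turn extracellular ATP into adenosine both rose: Entpd1 (CD39) by 2.89 ± 0.17 (at least 2.54-fold), from 3.81, 3.56 and 4.06 to 6.77, 6.78, 6.73, 6.65 and 6.58, and Nt5e (CD73) by 2.33 ± 0.22 (5.03-fold), from 7.94, 7.93 and 7.86 to 10.61, 10.37, 10.17, 10.15 and 9.89. For Nt5e a further probe set gave 1.02. Fgl2, a secreted fibrinogen-like protein, rose by 2.86 ± 0.35 (at least 1.39-fold), with Treg values from 5.30 to 6.60. Il10 was called higher, at 3.54, 3.33 and 3.43 in TN and 5.24, 5.42, 5.20, 4.26 and 4.89 in Treg, a difference of 1.57 ± 0.20 with group means at background. Prf1, which encodes the pore-forming protein perforin, went the other way and fell by 2.21 ± 0.18 (4.64-fold), from 7.72, 8.07 and 7.98 to 5.65, 5.72, 5.74, 5.60 and 5.86.

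Helper cytokines were near background throughout: only 1 of 17 measured had a group mean above it. Among these, 2 were called higher and 3 lower, with a median of 0.00, but the 2 called higher (Il10 and Ccl20) and the 3 called lower (Il2, Il21 and Il4) all had both group means at background. Il21, a product of follicular helper cells, read 5.11, 5.07 and 4.91 in TN and 3.62, 3.85, 4.0, 3.61 and 3.57 in Treg. The groups did not overlap, yet all values lay at or below the background level.

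Transcription factors followed several patterns. Of 14 forkhead factors, Foxp4 was the only one called higher (7.14%, against 6.54% of all genes). It rose by 0.78 ± 0.19 (at least 1.49-fold), and the call was lost in 3 alternatives. None was called lower by limma, and up to 3 were called lower in the alternatives. By limma 4 had an unadjusted p under 0.05 in either direction, Foxp4 among them. The Ikaros family, zinc finger regulators of lymphocyte fate, was split. Ikzf4 (Eos), a partner of Foxp3 in gene silencing, read 6.35, 6.38 and 6.54 in TN and 9.44, 9.47, 9.24, 9.53 and 9.44 in Treg. It rose by 3.0 ± 0.12 (8.01-fold), and with another probe set by 3.83. Ikzf3 (Aiolos) rose by 1.11 ± 0.16 (2.16-fold). Ikzf1 (Ikaros) fell by 1.10 ± 0.13 (2.14-fold), from 11.64, 11.60 and 11.58 to 10.65, 10.56, 10.64, 10.45 and 10.23. Ikzf5 had a difference of -0.44 ± 0.26 and was not called. Thus 3 members including Ikzf2 rose and 1 fell.

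Of 23 factors of helper and effector lineages, 12 were called higher and 4 lower (median 0.63). Hopx, a homeodomain-only protein, rose by 2.85 ± 0.12 (7.20-fold), from 8.47, 8.07 and 8.39 in TN to 11.13, 11.13, 11.26, 11.11 and 11.17 in Treg. Bhlhe40 rose by 2.56 ± 0.15 (at least 5.83-fold), Ahr, the aryl hydrocarbon receptor, by 2.28 ± 0.28 (at least 3.21-fold) and Irf4, which effector Treg need, by 2.17 ± 0.14 (4.50-fold). Id2, an inhibitor of E proteins, fell by 1.47 ± 0.12 (2.77-fold), from 9.62, 9.37 and 9.35 to 8.11, 7.94, 7.96, 7.86 and 8.03. Its relative Id3 rose by 1.06 ± 0.17 (2.08-fold), from 9.56, 9.52 and 9.51 to 10.53, 10.47, 10.63, 10.48 and 10.84. The pair therefore moved in opposite directions with no overlap for either gene. Runx3 and Eomes, factors of cytotoxic and type 1 cells, both fell, by 0.66 ± 0.17 and 0.66 ± 0.12, and Batf3 was called lower at background. Only 2 members of the list were called lower when TN array 1, TN array 2, Treg array 2 or Treg array 3 was left out.

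Factors that hold the naive state were called lower in 4 of 18 measured (22.2%, against 3.42% of all genes). Only 1, Id3, was called higher (5.56%, against 6.54% of all genes), and the median was -0.22. Satb1, a chromatin organiser of T cells, fell by 1.56 ± 0.15 (2.94-fold), from 11.94, 11.89 and 11.91 in TN to 10.58, 10.43, 10.46, 10.24 and 10.09 in Treg. Its 4 other probe sets gave -1.52 to -2.03, the dimmest with a Treg mean at background. Lef1, a partner of beta-catenin, fell by 1.28 ± 0.11 (2.42-fold), from 11.95, 11.99 and 11.92 to 10.69, 10.71, 10.69, 10.73 and 10.56. Sox4 fell by 1.01 ± 0.18 (2.01-fold) and Klf13 by 0.48 ± 0.11 (1.39-fold). Tcf7 was not analysed here.

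Genes of the naive surface and of naive signalling were often lower in Treg. Of 18 measured, 12 were called lower (66.7%, against 3.42% of all genes) and 2 (Ccr9 and Ms4a4c) higher, with a median of -1.41. This list too was put together with earlier results of these data known, so it gives no independent evidence of direction. Pdlim4, a PDZ and LIM domain protein of the actin cytoskeleton, had the largest fitted decrease: 10.35, 10.37 and 10.22 in TN against 3.87, 3.87, 4.06, 4.15 and 3.76 in Treg. TN arrays were bright and every Treg array was at background, a fall of 6.37 ± 0.16 or at least 31-fold (adjusted p = 3.49e-12). Pde3b, a phosphodiesterase that degrades cyclic AMP, read 10.07, 10.20 and 9.97 in TN and 5.47, 5.35, 5.40, 4.95 and 4.72 in Treg. It fell by 4.90 ± 0.19 or at least 26.4-fold. Dapl1, a death-associated protein-like gene of naive cells, fell by 3.53 ± 0.13 (11.6-fold), from 10.74, 10.53 and 10.67 to 7.13, 6.81, 7.06, 7.26 and 7.32. Slc16a5, a monocarboxylate transporter, fell by 3.40 ± 0.17 (at least 9.97-fold) and Tdrp by 3.06 ± 0.14 (8.31-fold). Ms4a4c was called higher by 0.53 ± 0.12 (1.45-fold), a call lost in 3 alternatives.

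**Figure D3:**
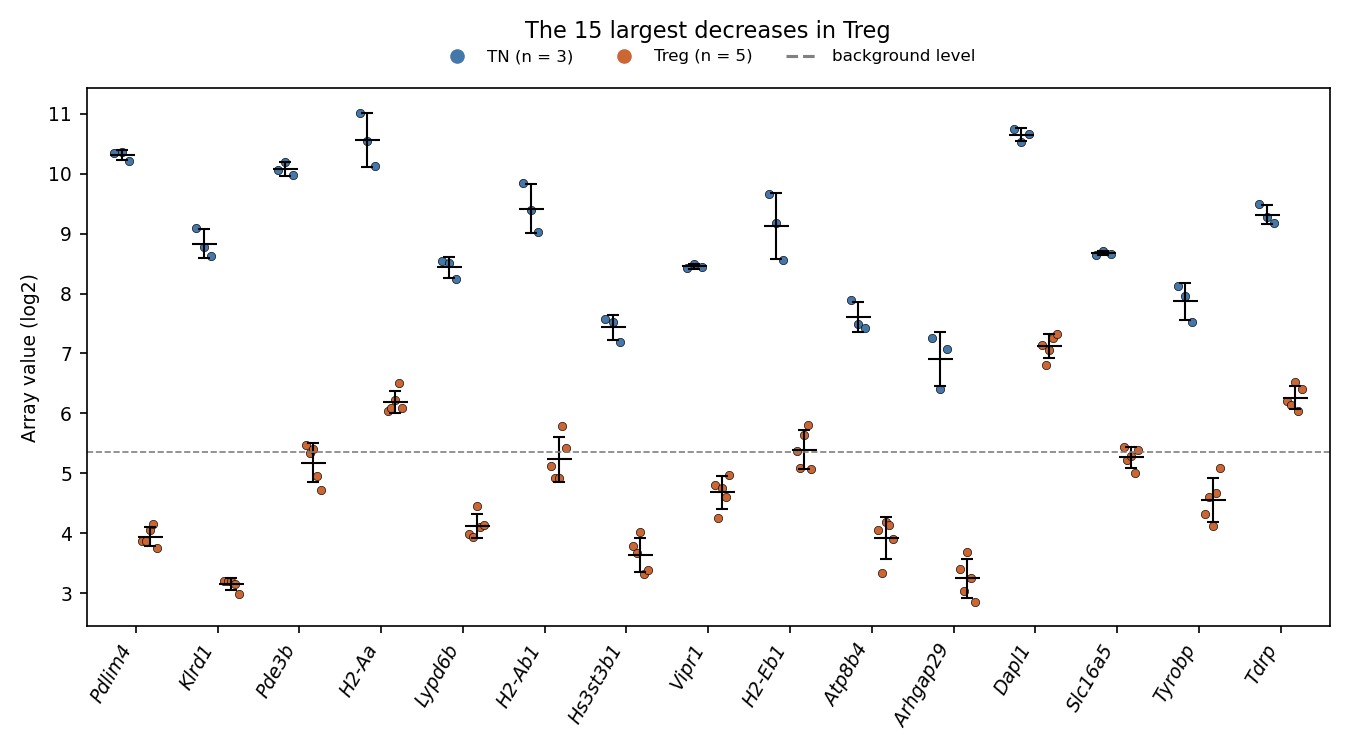
Array values (log2, vertical axis) of the 15 genes with the largest decrease in Treg, each point an array of TN (blue, n = 3) or Treg (orange, n = 5), with group mean and SD, and the background level of 5.36 as a dashed line. These genes were taken from called genes above background in a group whose groups do not overlap. All their TN arrays therefore lie above all Treg arrays by that choice. Pdlim4 falls from 10.21 or more to 4.15 or less.

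Other genes among the 15 largest decreases belonged to none of the naive lists. Lypd6b fell by 4.31 ± 0.17 (at least 8.46-fold), from 8.55, 8.52 and 8.24 in TN to 3.98, 3.94, 4.46, 4.11 and 4.15 in Treg. Vipr1, the receptor for vasoactive intestinal peptide, fell by 3.77 ± 0.18 (at least 8.55-fold), from 8.43, 8.49 and 8.44 to 4.81, 4.26, 4.76, 4.61 and 4.98. The heparan sulfate sulfotransferase Hs3st3b1 fell by 3.79 ± 0.18 (at least 4.23-fold), the phospholipid transporter Atp8b4 by 3.68 ± 0.19 (at least 4.76-fold) and the GTPase-activating protein Arhgap29 by 3.67 ± 0.21 (at least 2.94-fold). In each of these 5 genes the Treg mean was at background. The largest increases outside the lists were Gsta4, a glutathione transferase, which rose by 4.36 ± 0.15 (at least 14.7-fold) from 4.83, 5.14 and 4.65 to 9.03, 9.26, 9.26, 9.17 and 9.46, and Coro2a, a coronin, which rose by 4.32 ± 0.14 (at least 12.5-fold) from 4.58, 4.62 and 4.83 to 9.12, 8.94, 8.68, 9.12 and 9.12. Both were at background on all TN arrays.

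Factors that T cell receptor signalling induces were often higher in Treg. Of 20 measured genes of the NR4A, EGR and NF-kB type, 12 were called higher and none lower by limma (15 had an unadjusted p under 0.05 in either direction), with a median of 0.67. Irf4 was among them. Egr2, which restrains activation, rose by 1.28 ± 0.15 (2.43-fold), from 7.67, 7.36 and 7.28 in TN to 8.78, 8.79, 8.80, 8.64 and 8.56 in Treg. Nr4a1, an orphan nuclear receptor and early marker of receptor signalling, rose by 1.19 ± 0.14 (2.28-fold), from 7.95, 8.50 and 8.12 to 9.37, 9.42, 9.18, 9.53 and 9.39. Bcl3, an atypical inhibitor of NF-kB, rose by 0.97 ± 0.22 (1.96-fold). Of 18 AP-1 factors, 2 were called higher and 2 lower (median 0.08), and over the alternatives 0 to 4 were called lower. Batf rose by 0.87 ± 0.15 (1.83-fold), and Jdp2 was called higher at background (difference 0.81 ± 0.18). The calls for Fosl2 and Batf3, both lower, concerned genes at background in both groups.

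Negative feedback on the MAP kinases showed large single changes. Of 14 phosphatase and Sprouty genes, 6 were called higher and 2 lower (median 0.37). Dusp4, a nuclear phosphatase of ERK and JNK, read 4.98, 4.79 and 4.03 in TN and 8.86, 8.97, 9.0, 8.76 and 8.92 in Treg. TN values were at background and Treg values close together, a rise of 4.30 ± 0.18 or at least 11.7-fold. Spry1 rose by 2.03 ± 0.16 (at least 3.66-fold) and Dusp1 by 2.01 ± 0.20 (4.02-fold), the latter from 7.69, 7.88 and 7.58 to 9.76, 9.46, 9.35, 10.12 and 9.90. Dusp14 was called higher by 1.47 ± 0.13 from background. Dusp10 fell by 0.79 ± 0.11 (1.73-fold). Dusp7 was called lower by 0.50 with an adjusted p of 0.049, and lost the call in 14 alternatives. RGS proteins, which switch off G protein signals, were called higher in 5 of 9 and lower in 1 (median 0.50). Rgs1, which limits responses to chemokines, read 6.16, 6.18 and 5.87 in TN and 10.71, 10.67, 10.73, 10.26 and 10.29 in Treg. It rose by 4.46 ± 0.17 (22-fold), while Rgs16, Rgs9, Rgs3 and Rgs10 rose by 1.09 ± 0.15, 0.70 ± 0.15, 0.60 ± 0.13 and 0.50 ± 0.10. Other Rgs16 probe sets gave 2.70, with the TN mean at background, and 1.11, with both groups at background. Rgs2 fell by 0.56 ± 0.14 (1.48-fold). Rgs14, Rgs18 and Rgs19 were not called, with differences of 0.12, -0.03 and -0.38.

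Of 25 measured genes of the proximal T cell receptor machinery, 1 was called higher and 5 lower (median -0.07). Themis, an adaptor first known from thymocyte selection, fell by 2.18 ± 0.16 (4.52-fold), from 8.66, 8.51 and 8.34 in TN to 6.57, 6.30, 6.28, 6.13 and 6.34 in Treg. The decrease was seen on its 3 other probe sets too, at -1.62 to -1.95. Their TN means were only 5.51 to 6.16 and their Treg means were at background. The paracaspase Malt1 fell by 0.92 ± 0.20 (1.89-fold), the adaptor Grap2 by 0.80 ± 0.16 (1.74-fold) and Dgka, a diacylglycerol kinase, by 0.70 ± 0.11 (1.63-fold). The adaptor Sla was called higher by 0.40 ± 0.12 (1.32-fold, adjusted p = 0.0455), a call lost in 12 alternatives. Without Treg arrays 4 and 5 together 3 members were called lower, and with median-centred arrays 8 were.

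Cyclic nucleotide phosphodiesterases were called lower in 4 of 15 and higher in 2 (median 0.11). Beside Pde3b, Pde4b fell by 1.48 ± 0.19 (2.78-fold), Pde4d by 0.80 ± 0.16 (1.74-fold) and Pde7a by 0.79 ± 0.14 (1.73-fold). Other Pde4b probe sets above background gave smaller decreases, -0.70 and -0.75. Pde2a and Pde8a rose by 0.51 ± 0.13 and 0.61 ± 0.15. In the TGF-beta family, 3 of 22 were called higher and 5 lower (median 0.00). Tgfbr3, the co-receptor betaglycan, read 10.14, 10.08 and 10.10 in TN and 7.15, 7.17, 7.31, 6.76 and 6.92 in Treg. It fell by 3.05 ± 0.14 (8.27-fold) with no overlap. Tgfbr2 fell by 0.75 ± 0.11 (1.68-fold), whereas Tgfbr1, the other signalling chain, rose by 1.47 ± 0.24 (2.78-fold), from 8.13, 7.80 and 7.85 to 9.89, 9.50, 9.42, 9.14 and 9.06. Bmp7 rose by 2.60 ± 0.19 (at least 3.75-fold), with 0.69 on another probe set, and Bmpr2 by 1.69 ± 0.33 (at least 1.84-fold). Smad5 and Smad1, receptor-regulated SMAD proteins of the BMP branch, fell by 0.71 ± 0.20 and 0.55 ± 0.15. The count of members called lower dropped to 2 or 3 without TN array 1, 2 or 3 and to 2 without Treg array 4 or 5.

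Survival genes of the BCL2 family were called higher in 4 of 15 and lower in none by limma (7 had an unadjusted p under 0.05 in either direction), with a median of 0.36. Bcl2l1, which encodes the protective protein BCL-XL, rose by 1.24 ± 0.18 (2.37-fold), from 7.38, 7.61 and 7.32 in TN to 8.39, 8.63, 8.60, 8.88 and 8.88 in Treg. The death-promoting Bid rose by 1.02 ± 0.11 (2.03-fold) and Bcl2l2 by 0.79 ± 0.13 (at least 1.19-fold), while Pmaip1 (Noxa) was called higher with both groups at background. Of 8 GIMAP GTPases, which support lymphocyte survival, only Gimap7 was called, higher by 0.86 ± 0.14 (1.81-fold). The other 7 had differences from -0.35 to 0.19 on their brightest probe sets, another bright probe set of Gimap6 gave -0.97, and in 5 alternatives 1 member was called lower. Among 19 S100 proteins, annexins and galectins, 7 were called higher and 2 lower (median 0.10). Anxa4 rose by 2.14 ± 0.15 (at least 2.28-fold), S100a6 by 1.33 ± 0.16 (2.51-fold), Anxa2 by 1.15 ± 0.21 (2.22-fold) and S100a4 by 1.11 ± 0.16 (2.16-fold). Anxa5 was called lower by 0.41 and lost the call in 9 alternatives, and Anxa3 was called lower at background.

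Cell cycle genes were often called higher in Treg. Of 30 mitosis genes 16 were called higher and 1 lower (median 0.74), and of 34 DNA replication genes 18 were called higher and none lower by limma (18 had an unadjusted p under 0.05 in either direction; median 0.53). Birc5, survivin of the chromosomal passenger complex, read 4.77, 4.75 and 4.22 in TN and 6.36, 6.29, 6.65, 7.03 and 7.47 in Treg. Ube2c, a ubiquitin-conjugating enzyme of the anaphase-promoting complex, read 4.83, 5.67 and 5.20 and 6.84, 6.89, 6.90, 7.93 and 8.11. Mki67, the Ki-67 proliferation antigen, read 4.26, 4.14 and 3.82 and 5.66, 5.71, 5.79, 6.43 and 6.49. For all 3 the TN means were at background, arrays did not overlap, and the highest values came from Treg arrays 4 and 5. The rises were at least 2.64-fold, at least 3.94-fold and at least 1.58-fold. In the replication list, Tk1, thymidine kinase, rose by 2.39 ± 0.20 (at least 2.60-fold), Rrm2, the small subunit of ribonucleotide reductase, by 2.12 ± 0.18 (4.34-fold), Cdc6, a licensing factor, by 1.94 ± 0.20 from background and Uhrf1, which maintains DNA methylation, by 1.93 ± 0.17 (3.81-fold). Kif23, a kinesin of cytokinesis, was called lower, by 1.38.

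These genes differed among the Treg arrays. All 16 mitosis genes called higher had their highest value on Treg array 5 (10 genes) or Treg array 4 (6 genes), as did 17 of the 18 replication genes (10 on array 5 and 7 on array 4). The mean of the mitosis list was 4.47 to 4.66 on TN arrays and 5.24 to 5.71 on Treg arrays, and that of the replication list 6.59 to 6.77 and 7.22 to 7.51. No TN array therefore reached the lowest Treg array. Without Treg arrays 4 and 5 the counts called higher were 11 and 14, and the differences of Birc5, Ube2c and Mki67 were 1.85, 1.65 and 1.65. Of the mitosis genes 16 of 30 were above background in a group, and 6 were called higher when only genes with a mean above background were tested. Array values were means over many cells, so that a larger share of cycling cells and more transcript per cell cannot be told apart, and the same holds for every gene described here.

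**Figure D4:**
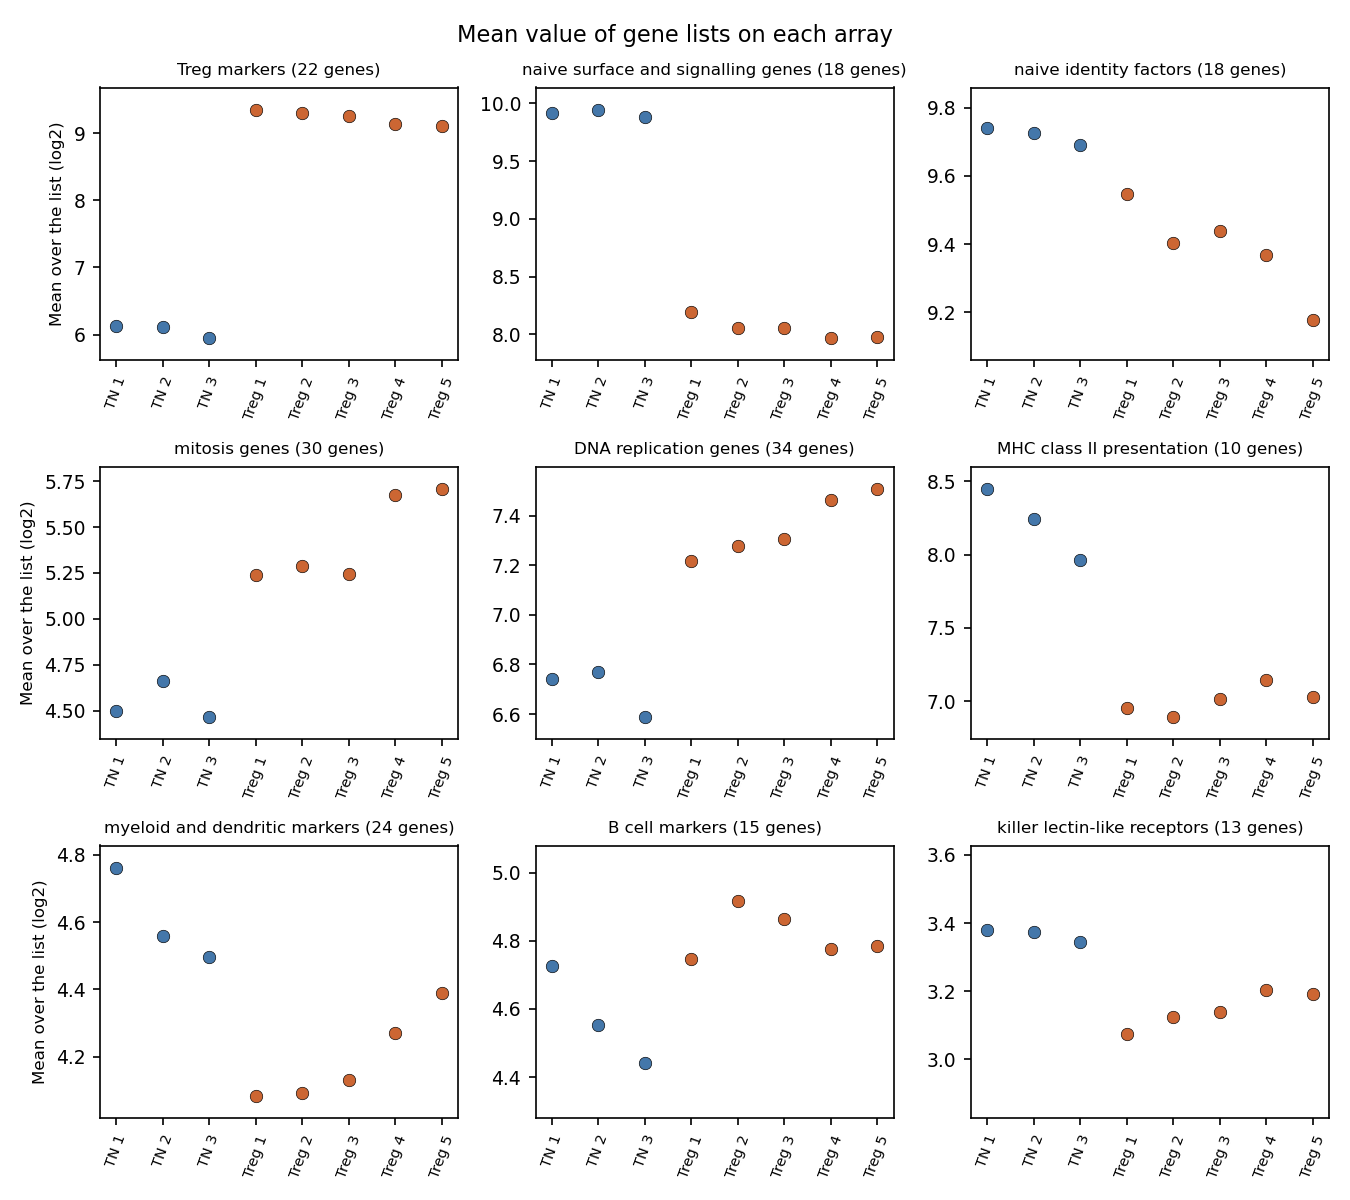
Mean over the measured genes of 9 lists (log2, vertical axis, with its own range in each panel) on each array of TN (blue) and Treg (orange). The Treg marker and naive surface lists separate the groups by a wide margin, mitosis and replication genes are highest on Treg arrays 4 and 5, and the MHC class II and myeloid lists are highest on TN array 1.

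Core metabolic machinery showed little change. No member was called in either direction by limma among 31 respiratory chain genes, 31 proteasome subunits and 29 cytosolic ribosomal proteins, which carry the basic energy and protein turnover of any cell. At an unadjusted p under 0.05 there were 3, 0 and 0, and alternative settings called at most 2 members of any of these lists in 1 direction. Their medians were 0.09, 0.12 and -0.01. Of 19 genes of glycolysis and the pentose phosphate path 4 were called higher and none lower (6 had an unadjusted p under 0.05 in either direction; median 0.19). These were Hk2, a hexokinase, which rose by 1.47 ± 0.18 (at least 1.39-fold), the glucose transporter Slc2a3, by 1.46 ± 0.14 (2.74-fold), Aldoc, by 1.23 ± 0.14 (2.34-fold) and Tpi1, by 0.87 ± 0.18 (1.82-fold). Cholesterol and fatty acid synthesis had 2 of 19 called higher (10.5%, against 6.54% of all genes), Fdft1 by 0.63 ± 0.14 and Scd2 by 0.53 ± 0.12. Of 26 genes of the PI3K, mTOR and AMPK network 3 were called higher and 2 lower (median -0.04). These were 11.5% and 7.69%, against 6.54% and 3.42% of all genes. Phlpp1, a phosphatase that inactivates AKT, had the largest change there and rose by 1.89 ± 0.13 (3.72-fold), from 6.22, 6.20 and 5.78 in TN to 8.10, 8.02, 7.97, 7.96 and 7.77 in Treg. Rictor, which defines mTOR complex 2, fell by 0.97 ± 0.24 (1.95-fold), and Pik3r5 fell by 0.82 ± 0.18 (1.77-fold).

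Interferon genes were called higher more often than all genes, and stress genes were not. Of 25 interferon-stimulated genes, 6 were called higher (24%, against 6.54% of all genes) and 1 lower (4%, against 3.42%). The median was 0.14, and 3 were called higher without TN array 3. Gbp3, a guanylate-binding GTPase, rose by 2.68 ± 0.24 (6.43-fold), from 6.33, 5.93 and 5.85 in TN to 9.21, 8.88, 8.91, 8.41 and 8.20 in Treg. Isg20, an exonuclease, rose by 1.01 ± 0.13 (2.02-fold) and Oas1a by 0.81 ± 0.21 (1.76-fold), and Mx1 was called higher at background. Ifit2 fell by 0.81 ± 0.21 (1.75-fold), a call that did not survive the removal of TN array 1 or 2 or of Treg array 4 or 5. Among 25 chaperone and ER stress genes only Xbp1 was called (4% higher, against 6.54% of all genes). It rose by 0.66 ± 0.12 (1.58-fold). By limma 6 had an unadjusted p under 0.05 in either direction, and in 11 alternatives 1 to 4 members were called lower. Of 35 enzymes of chromatin and DNA methylation 3 were called higher and 2 lower (median -0.11). These shares, 8.57% and 5.71%, were near the 6.54% and 3.42% of all genes. Kdm2b rose by 1.03 ± 0.14 (2.04-fold) and Hdac7, a Treg-expressed deacetylase, by 0.53 ± 0.15 (1.44-fold). The DNA demethylase Tet1 and the remodeller Smarca2 fell by 1.0 ± 0.24 and 0.79 ± 0.20.

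Markers of other cells of spleen and lymph node were examined, since a sort can carry traces of them. The classical MHC class II genes, expressed by B cells, dendritic cells and macrophages, were among the largest decreases. H2-Aa read 11.02, 10.54 and 10.13 in TN and 6.05, 6.09, 6.22, 6.51 and 6.09 in Treg, and fell by 4.37 ± 0.32 (20.7-fold). H2-Ab1 read 9.84, 9.40 and 9.02 and 5.12, 4.92, 4.92, 5.79 and 5.42, and fell by 4.18 ± 0.21 (at least 16.7-fold). H2-Eb1 read 9.66, 9.19 and 8.55 and 5.37, 5.08, 5.63, 5.80 and 5.08, and fell by 3.74 ± 0.34 (13.3-fold). In all 3 genes TN array 1 was highest and TN array 3 lowest among TN, and the groups were far apart. H2-DMb2 and Cd74, the invariant chain, fell by 0.99 ± 0.15 and 0.89 ± 0.23, while H2-Oa rose by 1.30 ± 0.20 (2.45-fold). H2-DMa, H2-Ob and Ctss had differences of 0.31, 0.28 and 0.27 and were not called, and the class II transactivator Ciita was at background in both groups. Of the 10 measured members 5 were thus called lower and 1 higher (median -0.50), with list means of 7.96 to 8.45 on TN arrays and 6.90 to 7.15 on Treg arrays. In every alternative 4 or 5 members were called lower. Without TN array 1, the differences were -4.14 for H2-Aa, -3.97 for H2-Ab1 and -3.48 for H2-Eb1.

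Of 24 myeloid and dendritic markers 9 were called lower (37.5%, against 3.42% of all genes) and 1 higher (median -0.15). Of the 24, 7 were above background in a group. The list mean ran from 4.50 to 4.76 on TN arrays and from 4.09 to 4.39 on Treg arrays. Tyrobp, the adaptor DAP12 of myeloid and natural killer cells, read 8.13, 7.95 and 7.52 in TN and 4.32, 4.60, 4.12, 4.68 and 5.08 in Treg. It fell by 3.31 ± 0.23 (at least 5.71-fold) and was bright in TN. Ly86 (MD-1) fell by 1.90 ± 0.21 (at least 1.25-fold), and Fcgr3, Siglech, a plasmacytoid dendritic cell receptor, and Itgax, the integrin CD11c of dendritic cells, were called lower with both groups at background. Itgax read 4.82, 4.55 and 4.15 in TN and 3.32, 3.88, 3.49, 3.81 and 3.71 in Treg, with no overlap (difference -0.87 ± 0.16, adjusted p = 0.00175). Itgam, Adgre1, Cd14 and Spi1, picked outside the rule for named genes, were at background in both groups, beside the 9 members called lower. TN array 1 was the highest TN array for 8 of the 9 members called lower and for 4 of the 5 class II members called lower. Without that array 7 myeloid and dendritic members and 4 class II members were called lower, and the difference of Tyrobp was -3.18. The part of other cells in these decreases was not tested. Only 2 of the myeloid and dendritic decreases were called when genes with a mean at background were left out.

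Lysozyme varied among the Treg arrays. Lyz2 read 5.91, 4.99 and 5.86 in TN and 7.45, 6.07, 6.57, 7.18 and 7.82 in Treg, with an adjusted p of 0.0406 for a difference of 1.43 ± 0.42, and the call was lost in 10 alternatives. Its near-identical copy Lyz1 read 6.28, 5.79 and 6.25 and 8.02, 6.11, 7.27, 7.77 and 8.44, and was not called (difference 1.41 ± 0.50). Signal from these copies cannot be separated with certainty on the array, and in both genes Treg array 5 was highest and Treg array 2 lowest.

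B cell markers went in both directions. Of 15 measured, 5 were above background in a group, and 3 were called higher and 3 lower (median 0.03). List means were 4.44 to 4.72 on TN arrays and 4.75 to 4.92 on Treg arrays. Cd79b, a chain of the B cell receptor complex, read 4.64, 4.33 and 4.12 in TN and 7.66, 7.40, 7.47, 7.60 and 8.02 in Treg. Its rise of 3.27 ± 0.17 (at least 4.84-fold) stood beside a partner chain, Cd79a, that was at background in both groups. Fcmr, the receptor for IgM, rose by 2.15 ± 0.14 (at least 3.08-fold) and Bank1 by 1.02 ± 0.19 (at least 1.62-fold). Ms4a1 (CD20) and Blnk were called lower with both groups at background. The factors Pax5 and Ebf1, which like Cd79a were picked outside the rule for named genes, were at background throughout. Ighm, the IgM heavy chain, fell by 0.46 ± 0.11 (1.37-fold) on its brightest probe set, from 11.97, 11.97 and 12.03 to 11.52, 11.54, 11.66, 11.37 and 11.58, and turned direction on its most variable one. Outside the list, Igha, the IgA heavy chain of B-lineage cells, read 8.69, 8.02 and 6.03 in TN and 4.62, 5.78, 5.14, 4.61 and 5.29 in Treg. It fell by 2.49 ± 0.44 (at least 4.67-fold) with no overlap, and TN array 1 was again the highest. The part of other cells in these values was not tested.

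Most killer cell receptors were at background. Of 13 killer lectin-like receptors 2 were above background in any group, and these moved in opposite directions. Klrd1 (CD94) read 9.10, 8.77 and 8.63 in TN and 3.21, 3.20, 3.21, 3.16 and 2.99 in Treg. It fell by 5.68 ± 0.20 or at least 11.1-fold (adjusted p = 7.64e-11), with all Treg arrays at background. Klrg1, an inhibitory receptor for cadherins, read 4.37, 4.66 and 4.36 in TN and 9.01, 9.06, 9.12, 8.59 and 8.92 in Treg. It rose by 4.47 ± 0.18 or at least 12-fold, with all TN arrays at background. Klrc1, which pairs with CD94, was called lower with both groups at background, at 3.29, 3.52 and 3.30 and 2.25, 2.29, 2.74, 2.66 and 2.49. Of 14 cytotoxic granule genes 6 were called higher and 3 lower (median 0.32). Gzmb, granzyme B, rose by 2.64 ± 0.22 (at least 2.47-fold), from 3.56, 4.12 and 4.40 to 6.86, 6.91, 6.90, 6.09 and 6.54. Granzyme K (Gzmk) fell by 2.06 ± 0.17 (at least 1.30-fold), from 6.01, 5.67 and 5.53 to 3.37, 3.48, 4.07, 3.94 and 3.53. Serpinb6b, a granzyme inhibitor, rose by 1.13 ± 0.15 (2.18-fold) and the protease Ctsw by 0.77 ± 0.14 (1.70-fold). Gzmc was called higher at background, where its groups overlapped.

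For CD8 T cells, Cd8a had group means at background, whereas Cd8b1 read 7.65, 7.68 and 7.47 in TN and 7.11, 7.24, 7.22, 7.19 and 7.32 in Treg, with a difference of -0.38 ± 0.13 (adjusted p = 0.0731). The groups did not overlap for Cd8b1, but it missed the threshold. In 6 alternatives 1 CD8 marker was called lower. None of 7 erythroid and platelet markers was called by limma, nor did any reach an unadjusted p under 0.05, and their differences ran from -0.04 to 0.31. The Y-linked Eif2s3y and Kdm5d were above background on every array, while Xist read 3.49 to 3.96.

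**Figure D5:**
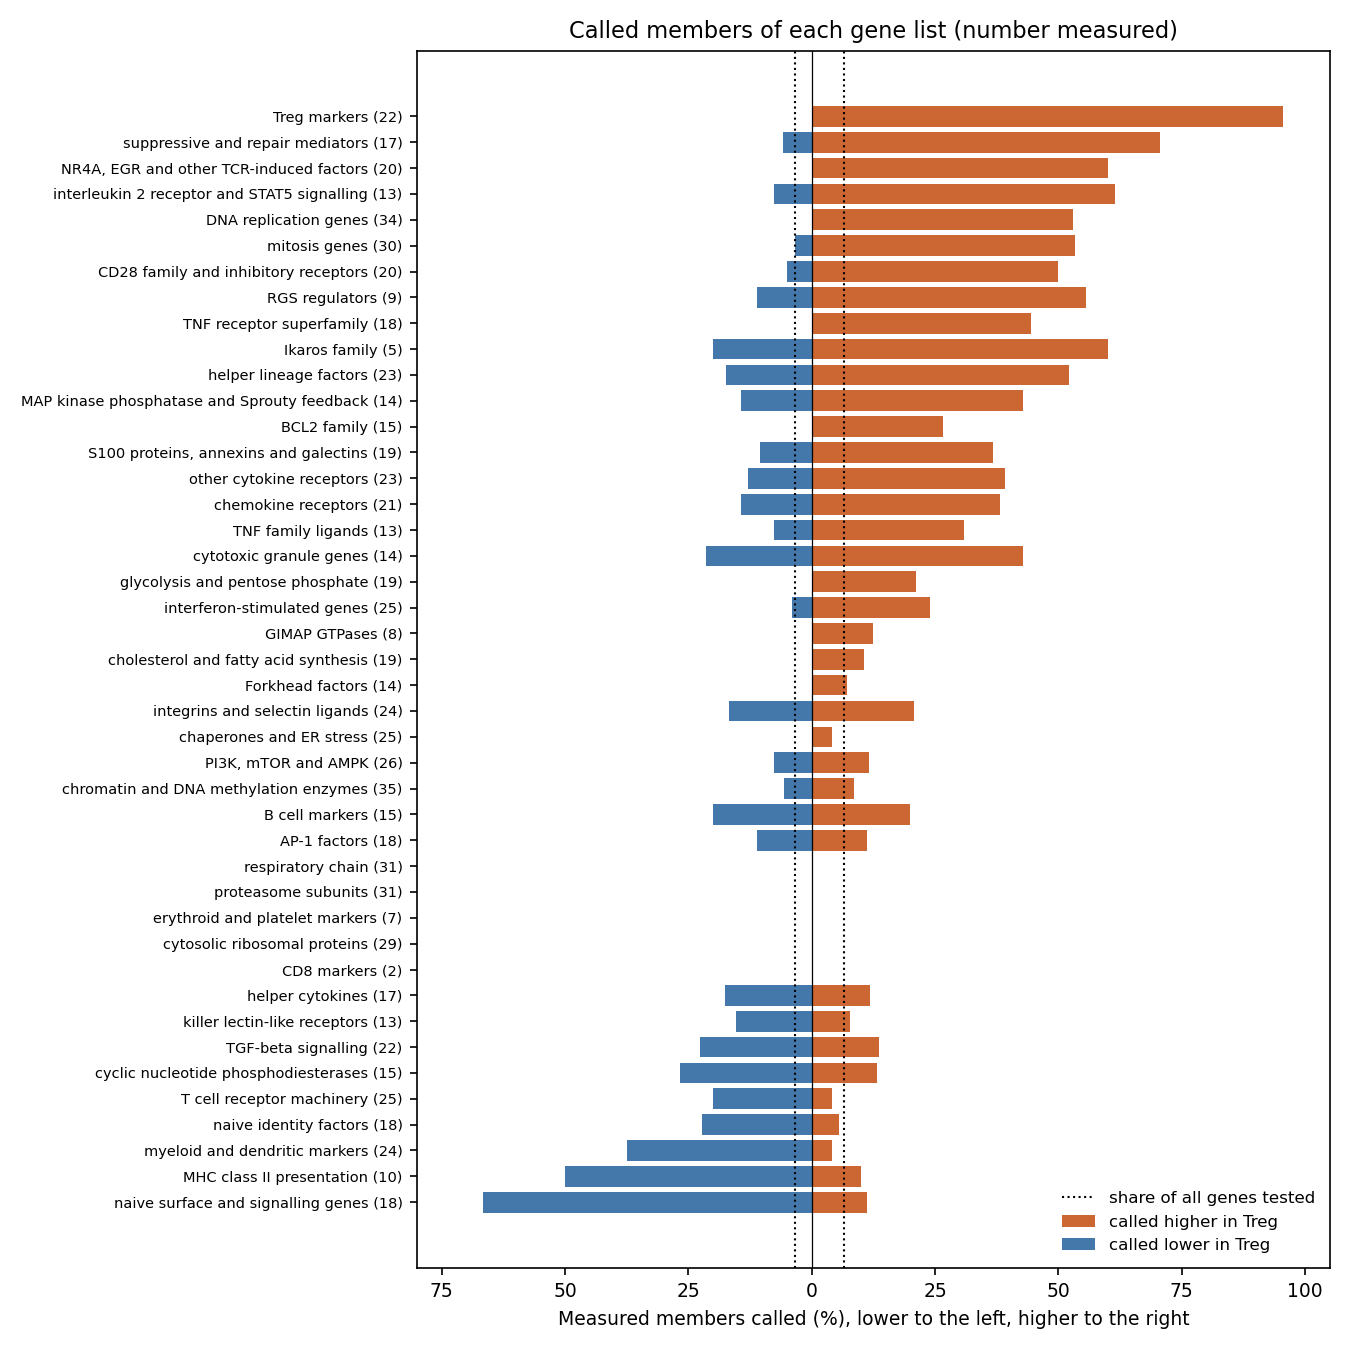
Share of the measured members of each gene list called higher (orange, to the right) or lower (blue, to the left) in Treg, in percent, with the number of measured genes in parentheses. Dotted lines mark the shares over all genes tested, 6.54% and 3.42%. Treg markers had the largest share called higher, 95.5%, and naive surface and signalling genes the largest share called lower, 66.7%. The lists were chosen with earlier results of these data known, so these shares give no independent evidence of direction.

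Promoter letters were set beside the calls, with each of the 4 motifs named above searched on both strands of the RefSeq windows. Among the 7261 promoters of genes above background in a group, 2.55% held the forkhead motif, against 2.79% of 717 promoters of genes called higher and 2.58% of 426 of genes called lower. The Runx motif was held by 3.58%, 3.91% and 3.29%. For AP-1 the shares were 4.48%, 6.69% and 3.29%, and for Ets 9.89%, 3.49% and 5.63%. Over all 14368 promoters matched to a tested gene the shares were 2.80% for forkhead, 4.21% for Runx, 6.29% for AP-1 and 6.17% for Ets. These shares are descriptions, with no test, and a match is not a binding site. Of the 44 genes named for the size of their change or as Treg markers, 26 had a promoter in the table and 4 held a motif. The windows of 3 of these genes, chosen after their values were seen, are shown because they hold a forkhead or Runx match. Capitals mark the motifs. They lie at chr7:110221453-110221752 on the plus strand (Swap70, called higher, TGTTTAC), at chr2:59484403-59484702 on the plus strand (Dapl1, called lower, GTAAACA, the reverse complement) and at chr16:58718823-58719122 on the minus strand (Gpr15, called higher). The Gpr15 window holds TGATTCA, an AP-1 match, and a run in which the reverse Runx motif AACCACA occurs in 2 copies that share 1 base.
Swap70: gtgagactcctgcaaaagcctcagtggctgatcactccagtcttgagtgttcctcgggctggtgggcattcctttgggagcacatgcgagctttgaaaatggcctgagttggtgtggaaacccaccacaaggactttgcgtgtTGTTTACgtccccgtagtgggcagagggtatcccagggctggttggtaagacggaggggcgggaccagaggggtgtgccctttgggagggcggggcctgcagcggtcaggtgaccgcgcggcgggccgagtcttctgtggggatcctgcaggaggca
Dapl1: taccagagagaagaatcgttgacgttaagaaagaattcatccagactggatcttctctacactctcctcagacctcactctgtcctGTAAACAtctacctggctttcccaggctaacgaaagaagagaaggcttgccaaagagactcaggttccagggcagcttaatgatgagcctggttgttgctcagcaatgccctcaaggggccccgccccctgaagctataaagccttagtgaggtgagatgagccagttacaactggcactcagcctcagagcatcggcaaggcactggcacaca
Gpr15: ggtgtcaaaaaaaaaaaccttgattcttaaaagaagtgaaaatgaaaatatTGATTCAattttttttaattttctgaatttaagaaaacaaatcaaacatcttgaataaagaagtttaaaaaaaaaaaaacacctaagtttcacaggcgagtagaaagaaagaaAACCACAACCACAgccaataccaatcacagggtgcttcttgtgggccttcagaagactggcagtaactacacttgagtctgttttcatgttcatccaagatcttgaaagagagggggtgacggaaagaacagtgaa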

How the data were processed

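Per the labels' protocols, RNA was extracted with Trizol, labelled with biotin and hybridised by the Affymetrix protocol. Per the submitters' processing notes, the authors used RMA, whose version is not given in the sources used here, and deposited 1 value per probe set. The deposited values are taken as log2 from their range, 1.54 to 14.65, with array medians of 4.07 to 4.16. RMA scales arrays towards a common distribution, so a shift of all genes together in the cells cannot be read from these values. The gene values still differed between groups. Array medians over the genes tested were 4.94 to 4.97 in TN and 5.02 to 5.15 in Treg, and the cause was not tested. No 2 arrays held identical values, and the labels gave no scan date or batch. The number of arrays limits the precision.

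Of 45101 probe sets, 64 controls, 9160 not in the gene table and 932 with several symbols were left out. The remaining 34945 covered 18193 genes, and where a gene had several probe sets the brightest by its average across all 11 arrays was used. RefSeq symbols were matched by Entrez ID for 34741 probe sets. limma 3.58.1 in R 4.3.3 fitted 1 mean per group over all 11 arrays, with eBayes and no covariates, and the two-sided contrast Treg minus TN was adjusted by Benjamini-Hochberg. The fit was tested on simulated data. Errors are SE.

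The 45 gene lists, the members and the tests were chosen with earlier results of these data known. Genes named are Foxp3 and 4 markers, the 15 largest changes each way without overlap and above background, up to 4 called members each way per list (all members of lists of up to 12) and the 6 most variable genes of each group. The Treg marker list was named in full after its values were seen. Cd3e and Cd4, named as cell type markers, and Itgam, Adgre1, Cd14, Spi1, Cd79a, Pax5 and Ebf1 were named outside this rule. Of 957 list entries 878 were matched. Lists are described by counts and medians, with no set test. The alternatives were 22 other settings, 1 of them, without both Treg arrays 4 and 5, chosen after seeing the data. The labels do not state that replicate numbers pair arrays, so they were not used as pairs. Deviations of same-numbered TN and Treg arrays from their group means correlated at 0.21, -0.03 and -0.14. With so few arrays this cannot exclude pairing.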

Additional observations from a re-analysis of the deposited data

Results flagged for a closer look

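Of the 200 named genes above background in a group, 8 had 1 Treg array far from the other 4 relative to the range of the group, a number that chance alone can give, since about 5% of such groups are marked by the criterion used. Treg array 1 stood apart in 4 of them. It was high for Cxcr5, at 8.70 against 8.45 to 8.51, for Pde7a, at 7.41 against 7.0 to 7.09, and for Serpinb6b, at 7.50 against 7.06 to 7.16. It was low for Anxa5, at 9.42 against 9.54 to 9.56. Treg array 5 stood apart in 3: it was low for Il2ra, at 8.97 against 9.19 to 9.28, for Klrd1, at 2.99 against 3.16 to 3.21, and for Lef1, at 10.56 against 10.69 to 10.73. Treg array 4 was high for Ddit4, a stress-induced inhibitor of mTOR, at 10.98 against 10.40 to 10.56. For Il2ra, Klrd1, Lef1 and Cxcr5 the gap was small beside the difference from TN. It was a larger part of that difference for Pde7a (-0.79) and Serpinb6b (1.13). For Ddit4 the call (difference 0.50 ± 0.14, adjusted p = 0.0409) was lost in 10 alternatives.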

How the results depend on the processing

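The 22 alternatives called no gene in the direction opposite to the main fit. Of 192 named genes called, 149 were called in every alternative in which they were tested, 42 lost the call in at least 1, and 18 in more than 5. These 18 were Dusp7, Sla, Gzmc, Lyz2, Ddit4, Ccr9, Il6ra, Anxa5, Smad5, Oas1a, Hdac7, Cd28, Smad1, Fosl2, Batf3, Ighm, Pde8a and Runx3, and the other 24 Pde2a, Smarca2, Ifit2, Anxa3, Tnfsf9, Fdft1, Klf13, Rictor, Ms4a4c, Foxp4, Bcl3, Cd74, Rgs2, Il4, Tet1, Bcl2l2, Malt1, Jdp2, Ikzf3, Eif4ebp1, Rgs9, Pik3r5, Scd2 and Sox4. The count called higher was 1190 and the count called lower 623. Leaving out 1 array at a time gave 865 to 1464 higher and 388 to 934 lower, with the lowest counts of decreases without TN array 1 (411) and TN array 2 (388). The decreases numbered 1010 when only TN and Treg arrays were fitted, 1174 with arrays centred on their medians and 412 without both Treg arrays 4 and 5. Array quality weights gave 1837 higher and 1386 lower. The cause of these shifts was not tested. Among the other settings the counts stayed within 1.5 times: 1195 and 637 with the mean of all probe sets, 1170 and 688 with the most variable probe set, 1110 and 775 after a further quantile step, 1178 and 638 with trend and robust moderation, and 873 and 538 among the 8555 genes with a mean above background. With the replicate number as a block, 978 genes were called higher and 458 lower over all arrays, and 1331 and 773 over TN and Treg arrays. The labels do not state that the numbers pair the arrays, so this says nothing about the strength of an effect. Treg arrays 4 and 5 share their number with no other array, so these 2 fits take no part of the difference from them.

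Foxp3 was at background, and the difference (Foxp3 Treg minus TN) changed sign with the setting: it was 0.0465 with the replicate block in either fit, 0.0338 with array weights, 0.0465 without both Treg arrays 4 and 5, and -0.19 to 0.24 when single arrays were left out. Itgb5 turned to 0.16 with the mean of all probe sets and 0.43 with the most variable one, where Ighm turned to 0.14. The other Itgb5 probe sets were at background in both groups. Genes near the background level are limited by signal: 533 genes called higher had a TN mean at background and 172 called lower a Treg mean at background, so their folds are lower bounds.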

Other observations

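Some genes above background in a group varied widely between arrays of that group. Among TN arrays the largest SD was in Hspa1b, an inducible heat shock protein, at 6.61, 9.66 and 7.24, followed by genes such as Igha, described above, and Malat1, a nuclear long noncoding RNA, at 11.15, 12.30 and 13.24 and Jun at 5.44, 7.44 and 6.53. On Treg arrays Hspa1b read 5.80, 6.70, 5.75, 7.46 and 6.24, Malat1 12.01, 11.86, 10.84, 11.22 and 11.86 and Jun 6.88, 6.47, 6.58, 7.30 and 7.09, and none of these 3 was called between the groups. Among Treg arrays the largest SD was in Lyz1, and Slc15a2, a peptide transporter, read 6.35, 5.56, 5.67, 4.40 and 5.90. Vps50 read 6.08, 5.87, 6.01, 5.01 and 4.39 and Atxn3 6.05, 5.68, 5.90, 4.93 and 4.43, both lowest on Treg array 5.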
